A study of Danio rerio with 15 samples.

Results

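Control zebrafish larvae at 5 days post fertilization were the unexposed baseline of a study of parental dietary arsenic, and their whole-body transcriptome is described here. The members are the 5 libraries labelled Control, out of 15 libraries in the series. The larvae were of WT genotype. Per the labels' protocols, their parents were fed for 60 days, at 3.5% of body weight, on blackworms that had spent 14 days in water with 0 mg/L sodium arsenite and carried less than 0.05 µg/g arsenic by dry weight. The other 10 libraries, 5 named Low and 5 named High, came from WT larvae of the same age whose parents ate worms listed at 32.4 and 72.47 µg/g, kept at 2.5 and 5 mg/L arsenite. All offspring grew in embryo medium without arsenic. The labels put the number 20 beside the whole larvae without saying whether that is per sample, and do not say whether libraries came from separate clutches, so every SD below measures the spread between these 5 RNA samples, which may be technical in part. The design holds no contrast within Control, and no test was made.

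A zebrafish larva at this age has hatched, swims freely and hunts by sight, and its eyes, axial muscle and skin are functional. The yolk is nearly spent, so the larva is passing from maternal supply to its own feeding, and the liver, the intestine and the exocrine pancreas are taking up their adult tasks. Exocrine pancreas cells make zymogens such as trypsinogen, hepatocytes secrete plasma proteins and lipid carriers, and enterocytes absorb nutrients across a brush border. Blood still contains embryonic and larval red cells, and the thymus holds the first developing T cells.

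Total counts were 29.5, 23.8, 26.2, 25.2 and 59.9 M in Control 1 to 5, so Control 5 was the deepest library. Between 25427 and 26422 of the 32520 genes in the table had at least 1 count, and 25348 to 25572 after all libraries were thinned to the smallest total. Counts of the mitochondrial genome took 4.44% to 5.23% of a library. All 10 pairs of Control libraries differed far beyond sampling noise, so all 5 were kept as separate samples.

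Levels are given as CPM, counts per M of library counts after scaling by TMM factors (a trimmed mean that sets libraries on a common scale), or as a share of a library's counts. Neither corrects for transcript length, because no transcript lengths were in the tables used here, so an order of genes by CPM is an order by reads and favours long transcripts. On this scale 19775 genes had a Control mean of at least 1 CPM. The 144 genes at 1000 CPM or more held 34.3 ± 3.61% of the counts (SD, n = 5), the 1255 genes from 100 to 1000 CPM held 30.0 ± 0.83%, and the 9854 genes from 10 to 100 CPM held 31.7 ± 2.63%. The concentration differed between libraries. The number of genes that together held 50% of the counts was 307, 360, 668, 441 and 511 in Control 1 to 5, fewest in Control 1 and most in Control 3. The 100 most abundant genes held 33.6, 30.7, 25.2, 29.6 and 27.9% of the counts in the same order.

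Transcripts for energy supply, translation and the cytoskeleton led the list by reads. MT-CO1, the catalytic subunit of cytochrome oxidase encoded in mitochondria, came first with 15738, 16314, 14129.9, 15811 and 14789 CPM in Control 1 to 5. It differed little between libraries, with an SD of 0.08 log2 units. Among the 20 most abundant genes by CPM, 4 more were mitochondrial, namely MT-CO3, MT-CO2, MT-ATP6 and MT-CYB, with means of 7356, 5695, 4708 and 3767 CPM. The translation elongation factor gene eef1a1l1 had 13096, 12611, 8132, 12209 and 10189.8 CPM and stood lowest in Control 3. Ribosomal protein genes as a list, with 80 matched members, took 9.13 ± 1.3% of the counts, and translation factors with 35 members took 3.51 ± 0.309%. The other abundant genes of this kind were the cytoplasmic actin gene actb2 at 10327 ± 1761 CPM, the chaperone gene HSP90AB1 at 4679 ± 577 CPM and SLC25A5, an ADP/ATP carrier of mitochondria, at 4529.5 ± 1050.0 CPM (SD, n = 5 each).

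Among 27 organ lists, axial muscle and lens took the most reads. Together the 1003 genes of the organ lists held 20.2 ± 2.56% of the counts (SD, n = 5). Skeletal muscle, with 83 matched members, took 7.75, 6.29, 3.79, 6.01 and 4.26% of the counts in Control 1 to 5. It was highest in Control 1 and lowest in Control 3. Its abundant genes included actc1b, a sarcomeric actin, at 16214, 11314, 6458, 11468 and 7854 CPM, and the parvalbumin gene pvalb1, a calcium buffer of fast fibres, at 8077, 4054, 1804, 5459.9 and 3088 CPM. Both ordered the libraries the same way at the ends, with Control 1 highest and Control 3 lowest. The calcium pump gene atp2a1l averaged 3185 ± 1357 CPM and the creatine kinase gene ckmb 2994 ± 1300.5 CPM (SD, n = 5 each). The gene nme2b.2, a nucleoside diphosphate kinase placed on the muscle list, averaged 7915 ± 3942 CPM.

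Eye genes were abundant. The lens list, with 67 members, took 4.87 ± 0.521% of the counts, close to muscle. Its beta crystallin genes crybb1l2 and CRYBB1, which encode refractive proteins of the lens, averaged 4901 ± 1031 and 4599 ± 616 CPM. Of the 60 lens members at 10 CPM or more, 5 had an SD of 1 log2 unit or more. That is 8.33%, against 2.4% of all genes at that level. The photoreceptor list, with 60 members, took 1.19 ± 0.185%. Cone genes on the list included the green-type opsin gene opn1mw1 at 602 ± 155 CPM and the cone transducin gene GNAT2 at 358 ± 54.3 CPM. In 31 of the 42 photoreceptor members at 10 CPM or more, Control 2 was the highest library, as it was for 25.5% of all genes at that level.

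Skin and connective tissue followed. Epidermal genes took 2.38 ± 0.344% of the counts, led by the keratin genes krt91 at 10809.7, 10369, 5551, 5399.7 and 7299 CPM and krt4 at 3148 ± 628 CPM. The fibroblast matrix list took 1.41 ± 0.269%, including COL1A1 and COL1A2, chains of type I collagen, at 3720.2 ± 879.5 and 3151 ± 812 CPM. Cartilage and bone genes took 0.678 ± 0.218%, and COL10A1 (ENSDARG00000054753), a collagen of hypertrophic cartilage and early bone, averaged 1689.9 ± 508 CPM. The ionocyte list, for the ion-transporting cells of the skin and gills, took 0.16 ± 0.0125%.

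The nervous system took a moderate share of the reads. Neuronal and synaptic genes took 1.18 ± 0.235% of the counts over 72 members, of which 65 were at 10 CPM or more. SNAP25 (ENSDARG00000020609), a vesicle fusion protein of synapses, had 529.7, 459, 612, 511 and 546 CPM, a narrow range. Glial and myelin genes took 0.663 ± 0.0686%, with the myelin basic protein gene mbpa at 1661, 638, 788, 1065 and 1046 CPM, highest in Control 1 and lowest in Control 2. Among pituitary and hypothalamic hormones, the neuropeptide gene adcyap1b led at 124 ± 8.43 CPM, growth hormone gh1 had 30.2, 59, 7.36, 46.1 and 24.7 CPM, and POMC, the precursor of corticotropin, had 37.5, 29.7, 14.3, 26.3 and 34.2 CPM. Both pituitary hormones were lowest in Control 3.

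Blood, vessels, immune cells and kidney took small shares of the counts, with means from 0.0534% for endothelium to 0.149% for the globin list. The chief globin on that list was hbaa1, an alpha chain, with 2185, 775, 648, 1137 and 977 CPM. The list left out the globin genes with the symbol HBE1. Markers of developing T cells in the thymus were present in every library, with the recombinase gene RAG1 at 255, 146, 202, 145 and 172 CPM and its partner RAG2 at 23.5 ± 8.72 CPM. The invariant chain gene cd74a, which escorts MHC class II, had 637, 436, 214, 345 and 287 CPM and led the myeloid list, and was highest in Control 1. The endothelial genes cdh5 and kdrl averaged 46.9 ± 5.89 and 38.6 ± 4.67 CPM. In the pronephros list the podocyte gene podxl averaged 37.6 ± 7.95 CPM and LRP2, the endocytic receptor megalin of kidney tubules, 34.7 ± 8.26 CPM.

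Most genes on the lists of earlier stages and of the germ line were below 1 CPM, namely 5 of 9 matched genes for the hatching gland, 20 of 26 for the early embryo and 12 of 15 for the germ line. Of all 32520 genes in the table, 12745 were below that level. The 5 of 9 members of the hatching gland list hardly set that list apart. The hatching enzyme gene he1.1 had 0 counts in 4 libraries and 0.00633 CPM on average, the germ cell gene DDX4 averaged 0.0723 CPM, and the pluripotency gene pou5f3 0.0824 CPM. The yolk precursor genes vtg1 and vtg3 averaged 0.0417 and 0.0625 CPM. Other members were well above that. On the hatching gland list XBP1, a transcription factor of secretory cells in general, averaged 213 CPM, agr1 35.1 CPM and hce2l2 10.34 CPM, and on the early embryo list CCNB1, a cyclin of any dividing cell, averaged 22.8 CPM, sox19b 10.8 CPM and the nodal ligand gene ndr2 10.4 CPM. No germ line member reached 10 CPM. Not every 0 in this table can be read as absence of a transcript. Of 1634 distinct list genes, 33 had 0 counts in every Control library, 17 of them in all 15 libraries of the series, and these 33 included genes that most cells use, such as HPRT1 of purine salvage and the complex I subunit genes NDUFS4 and NDUFA12. The beta cell hormone gene ins reached only 0.315 CPM in Control 2 and 0.241 CPM in Control 4 and had 0 counts in the other libraries.

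**Figure D1:**
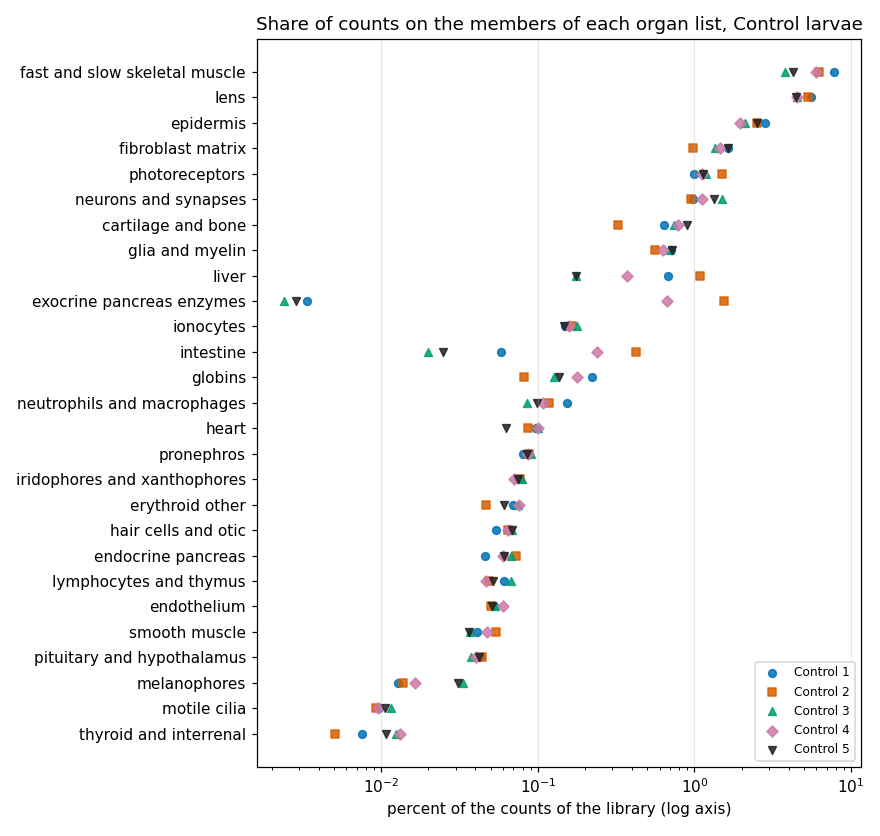
Percent of a library's counts on the members of each of 27 organ lists (log axis), with 1 symbol per Control library. Most lists hold the 5 symbols close together, whereas the exocrine pancreas, intestine and liver lists spread over wide ranges and skeletal muscle and lens lie at the top.

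The spread between libraries was measured as the SD of log2 CPM (prior count 2) over the 5 libraries. Among the 11253 genes with a mean of at least 10 CPM the median SD was 0.197 log2 units, and 270 genes, 2.4% of those considered, had an SD of 1 or more. Digestive organ genes were prominent in this group, since 68 of the 270 were on the pancreas, intestine or liver lists, which together supplied 75 of all 11253 genes. Many of these 75 reached a mean of 10 CPM only through their high libraries, since the median over the 5 libraries was below 10 CPM in all 21 pancreas members, in 8 of 17 intestinal and in 19 of 37 liver members, so these counts are a description. Of the 270, 99 were on some list and 171 on none, where the lists hold 1634 of all 32520 genes in the table. The share of list genes among all genes at 10 CPM or more was not computed. The 270 were chosen by their spread over these same libraries, and a high library can lift a gene past a mean of 10 CPM. Which libraries were highest in them is therefore also only a description. Control 2 was the highest library for 158 of the 270 genes, or 58.5%, against 25.5% of all genes at 10 CPM or more. The highest pair of libraries was Control 2 and Control 4 for 128 of the 270 (47.4%, against 9.01% of all genes), Control 1 and Control 2 for 67 (24.8%, against 15.5%), and Control 3 and Control 5 for 23 (8.52%, against 20.0%). In bulk RNA of whole larvae, fewer cells of an organ and less RNA per cell cannot be told apart.

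**Figure D2:**
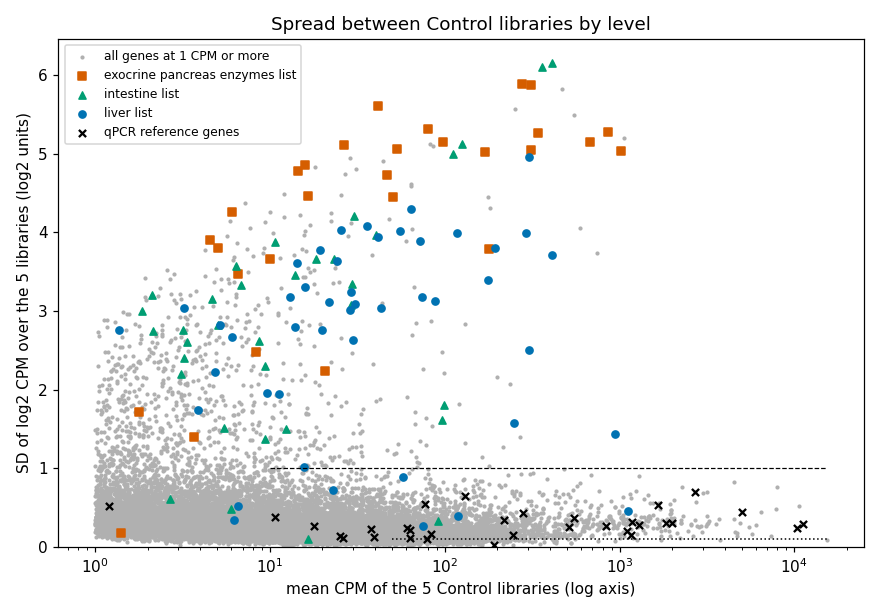
SD of log2 CPM over the 5 Control libraries against mean CPM (log axis) for the 19775 genes at 1 CPM or more, with members of 3 digestive lists and the qPCR reference genes marked. The dashed line marks an SD of 1 for genes at 10 CPM or more and the dotted line an SD of 0.1 for genes at 50 CPM or more. Of the 75 digestive genes at 10 CPM or more, 68 lie at an SD of 1 or more and 7 below it. All 31 reference genes at that level lie below it, as do most genes there.

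Transcripts of exocrine pancreas enzymes were scarce in 3 libraries and abundant in the other 2. The mean log2 CPM of the 29 list members at 1 CPM or more was -1.10, 6.87, -1.53, 5.33 and -1.12 in Control 1 to 5, an SD of 4.07 log2 units. The trypsinogen gene prss1 (ENSDARG00000042993) had 4.46, 3623, 3.34, 1469 and 4.27 CPM, and the highest library exceeded the lowest 1085-fold. The elastase gene ela3l had 0.825, 1171, 0.877, 527 and 1.3 CPM and the amylase gene amy2al2 0.15, 1201, 0.304, 364 and 1.08 CPM. Control 2 and Control 4 were the highest pair for each of these genes, far above the other 3 libraries. Among all 19775 genes at 1 CPM or more, 955 had an SD of at least 1. Control 2 and Control 4 were the highest pair for 9.01% of all genes at 10 CPM or more. No share was computed over all genes with any count. Of the 29 members with any count, with no filter on the mean, 28 had an SD of at least 1. Control 2 and Control 4 were the highest pair for 26 of them. Among the exceptions, the amylase gene amy2al1 had 5.74, 9.08, 1.18, 1.41 and 1.09 CPM, highest in Control 1 and Control 2, and PTF1A, a transcription factor of acinar cells, was level at 1.35, 1.21, 1.35, 1.73 and 1.39 CPM. Control 4 exceeded Control 2 in c6ast4, an astacin-type protease, at 0.337, 77.7, 0.27, 176 and 0.569 CPM.

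The size of the gap between Control 2 and Control 4 was not the same for all enzymes. The carboxypeptidase gene CPA1 (ENSDARG00000021339) had 3.9, 459, 3.64, 423 and 3.34 CPM, nearly level between these libraries. Its copy CPA1 (ENSDARG00000030915) had 0.337, 384, 0.202, 105 and 0.237 CPM. The bile salt lipase gene CEL (ENSDARG00000029822) had 0.075, 356, 0.236, 44.1 and 0.0791 CPM, several times higher in Control 2 than in Control 4. Without Control 2 the share of counts on the enzyme list averaged 0.169%, against 0.444 ± 0.678% over all 5 libraries, and the SD of the list's mean log2 CPM ranged from 3.41 without Control 2 to 4.51 without Control 1.

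Intestinal genes showed a graded pattern with Control 1 between the extremes. The list's mean log2 CPM over 34 members was 1.78, 5.16, -0.15, 4.05 and -0.94, with an SD of 2.62 log2 units. Chitinase gene chia.2 (ENSDARG00000099185), whose product degrades chitin, had 37.9, 1194, 0.0337, 819.6 and 0.474 CPM, of which the Control 3 value rests on 1 count. The related chia.3 and chia.1 had 23.1, 1344, 0.0337, 431 and 0.285 and 23.1, 276, 0.135, 331 and 0.301 CPM. The peptide transporter gene SLC15A1 (ENSDARG00000044528) had 4.65, 104, 0.877, 34.4 and 0.854 CPM and the brush border gene VIL1, an actin bundler, 32.2, 258, 25, 147 and 22.5 CPM. Of all 37 matched members, with no filter on the mean, 33 had an SD of 1 or more and 30 had Control 2 and Control 4 as the highest pair. Among all genes, 955 of the 19775 at 1 CPM or more had such an SD. That pair was highest for 9.01% of all genes at 10 CPM or more, and genes of fewer counts have no such share.

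Several intestinal members did not share that pattern. FABP6, a bile acid carrier of the distal intestine, had 0.862, 199.9, 0.54, 0.683 and 0.111 CPM and was raised in Control 2 alone, where Control 4 lay among the low libraries. The fatty acid binding gene fabp1b.2 had 317, 57.8, 13.9, 19.8 and 89.5 CPM, with Control 1 and Control 5 highest. The alkaline phosphatase gene alpi.1, on the same list, varied little, at 15.3, 16.4, 16.2, 18.4 and 17 CPM and an SD of 0.10 log2 units.

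Liver genes followed another order of libraries than pancreas genes. Their mean log2 CPM over 46 members was 5.59, 6.45, 2.53, 2.63 and 0.34, an SD of 2.49 log2 units. Control 1 and Control 2 were high, Control 3 and Control 4 were about 3 to 4 log2 units lower, and Control 5 was the lowest. The liver fatty acid binding gene fabp10a had 426, 517, 18.1, 13.9 and 0.886 CPM. The apolipoprotein gene apoa2, a constituent of high-density lipoprotein, had 1088, 866, 49.2, 54.4 and 1.91 CPM, and the transferrin gene tfa, an iron carrier, 806, 579, 79.7, 33.4 and 15.6 CPM. The fibrinogen chain gene fga, of blood clotting, had 114, 197, 8.4, 2.09 and 0.0791 CPM. In each of these genes Control 1 and Control 2 were the highest pair, as in 15.5% of all genes at 10 CPM or more. Control 5 was lowest in each, as in 13.8% of all genes at that level.

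Of the 50 liver members with any count, 42 had an SD of 1 or more, as did 955 of all 19775 genes at 1 CPM or more. Control 1 and Control 2 were the highest pair for 38 members, against 15.5% of all genes at 10 CPM or more. Control 5 was the lowest library for 36 members, against 13.8% of all genes at 10 CPM or more. These shares leave out genes of fewer counts, which the 50 members include. Complement genes, which are largely made by the liver, kept the same order, as c3a.1 had 54.4, 152, 5.84, 2.45 and 0.933 CPM and c9 61.9, 112, 3.37, 1.61 and 0.0474 CPM. The complement and acute phase list, which shares genes with the liver list, had a mean log2 CPM of 3.55, 4.11, 1.42, 1.58 and 0.35. Control 4 thus combined abundant pancreas enzymes with low plasma protein transcripts, and Control 1 had the reverse.

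Some lipid carrier genes on the liver list stood between these patterns, whereas apoa2, apom and apoc1 had Control 1 and Control 2 highest. The apolipoprotein gene apoa4b.2 had 26.7, 657, 0.709, 834 and 0.712 CPM and so followed the intestinal order, with Control 2 and Control 4 highest. APOB, the scaffold protein of lipoproteins that liver and intestine secrete, had 25.7, 63.3, 3.51, 53.4 and 0.253 CPM. Apolipoprotein gene apoc2 had 54.9, 211, 5.4, 169 and 1.49 CPM. Of the 50 liver members with any count, 8 had Control 2 and Control 4 as their highest pair, against 9.01% of all genes at 10 CPM or more. The retinol carrier gene RBP4, also on the list, varied less, at 1582, 1336, 725, 874 and 1089 CPM.

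**Figure D3:**
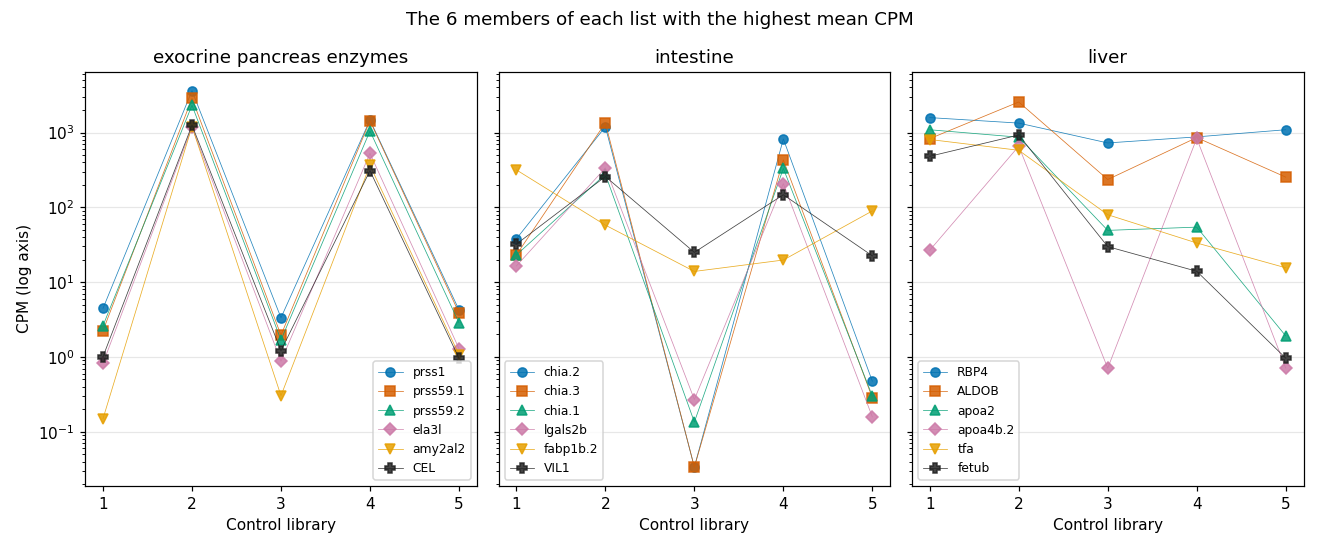
CPM (log axis) in Control 1 to 5 of the 6 members with the highest mean CPM on the exocrine pancreas, intestine and liver lists. Thin lines only join the points of a gene, since the libraries have no order. Pancreas enzymes peak in Control 2 and Control 4 together, chitinases do so with Control 1 in between, and apoa2, tfa and fetub are highest in Control 1 and Control 2.

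Hormone genes of the islets were low and did not all order the libraries alike. The somatostatin gene sst2 had 0.15, 16.5, 0.0337, 14.1 and 0.142 CPM and the glucagon gene gcga 0.675, 8.99, 0.439, 17 and 0.854 CPM, with Control 2 and Control 4 above the other 3 libraries in both. The insulin gene insb, at 26, 0, 4, 8 and 4 counts in Control 1 to 5, was highest in Control 1 and had no count in Control 2. The more abundant members of the endocrine pancreas list are also used by neurons, as is the transcription factor gene NEUROD1 at 269, 380.4, 324, 299 and 302 CPM. None of the 7 members at 10 CPM or more reached an SD of 1. Only 2.4% of all genes at that level did, so 7 members are too few to show a difference. The mean of the list over members at 1 CPM or more had an SD of 0.89 log2 units.

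Heart genes set Control 5 apart. The list's mean log2 CPM was 3.95, 3.74, 3.76, 3.90 and 2.77, and its SD of 0.48 log2 units fell to 0.10 without Control 5. The cardiac light chain gene MYL7 had 107, 44.2, 78.6, 77.4 and 12.8 CPM, the atrial peptide hormone gene nppa 13.4, 11.6, 19.4, 12.2 and 1.36 CPM, and the cardiac myosin gene myh6 (ENSDARG00000090637) 16.3, 18.5, 13.6, 14.8 and 0.902 CPM. Control 5 was lowest in all 3 genes and in 11 of the 15 members at 10 CPM or more, against 13.8% of all genes at that level. Other sarcomere genes on the list were not low there, among them MYBPC3, a myosin binding protein, at 48.3, 38.5, 55.3, 47.7 and 40.4 CPM, and MYH6 (ENSDARG00000079564) at 43.9, 51.2, 66.7, 61.3 and 51.2 CPM. Cardiac transcripts and liver transcripts were both lowest in Control 5, and the part of either in the other was not tested.

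Transcripts of the cell cycle and cartilage lists were low in Control 2. The cell cycle list had a mean log2 CPM of 5.02, 4.07, 5.31, 5.22 and 5.21, and Control 2 was the lowest library for 36 of its 37 members at 10 CPM or more, against 30.0% of all genes at that level. Its SD of 0.51 log2 units fell to 0.12 without Control 2. The proliferation marker gene mki67 had 112, 50.02, 172, 133 and 148 CPM and PCNA, the replication clamp, 269, 152, 406, 334 and 388 CPM. In the cartilage and bone list the cartilage matrix gene MATN1 had 374, 135, 481, 655 and 776 CPM and COL2A1 (ENSDARG00000011407), the main cartilage collagen, 539.9, 308, 684, 836 and 799 CPM, and Control 2 was lowest for 20 of 32 members, to be read against the same 30.0%. The thyroid hormone precursor gene TG had 57.1, 14.4, 88.2, 99.8 and 81.3 CPM, again lowest in Control 2.

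Globin chains did not all order the libraries the same way. The abundant chain hbaa1, given above, was highest in Control 1 and lowest in Control 3. The embryonic chain gene hbae3 had 17.7, 3.69, 120.3, 158 and 76.6 CPM and hbae1.1 12.7, 3.96, 21.9, 56.8 and 13.8 CPM. Both were lowest in Control 2, with Control 4 highest, as was hbae1.2 at 552, 164, 1156, 1997 and 1188 counts. In contrast hbae1.3, at 457, 377, 2973, 1533 and 3907 counts in Control 1 to 5, was highest in Control 3 by CPM. Over the 7 listed globin genes at 1 CPM or more the mean log2 CPM was 5.22, 3.71, 5.87, 6.53 and 5.50, and its SD of 1.05 log2 units fell to 0.57 without Control 2. Other red cell genes varied less, with the erythroid list at 4.11, 3.69, 3.87, 4.13 and 3.57 on the same scale. The globin list matched 9 of 16 names and left out the HBE1 genes. Of these, ENSDARG00000113599 had 144, 408, 3823, 870 and 7365 counts, by CPM lowest in Control 1 and highest in Control 3. HBE1 genes ENSDARG00000115405 and ENSDARG00000087390, at 273, 58, 899, 1804 and 719 and 668, 182, 3043, 4163 and 2299 counts, were lowest in Control 2. The globin genes include near-identical copies, such as hbae1.1, hbae1.2 and hbae1.3, and the counting does not show how shared reads were divided.

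Melanin genes divided the libraries in another way. The melanosome genes pmela and pmelb had 19.9, 20.7, 49.1, 29.4 and 54.9 and 12.6, 9.75, 49.6, 19.8 and 51.6 CPM, and DCT, an enzyme of melanin synthesis, had 9.07, 9.44, 40.9, 10.16 and 40.8 CPM. Control 3 and Control 5 were above the other 3 libraries in each of these genes. They were the highest pair for 4 of 6 list members at 10 CPM or more, against 20.0% of all genes at that level. KIT, a receptor of melanophores and other cells, did not follow them, at 13.9, 15.8, 18.6, 14.4 and 13.3 CPM. Pigment cells and retinal pigment epithelium both express melanin genes and cannot be told apart here.

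**Figure D4:**
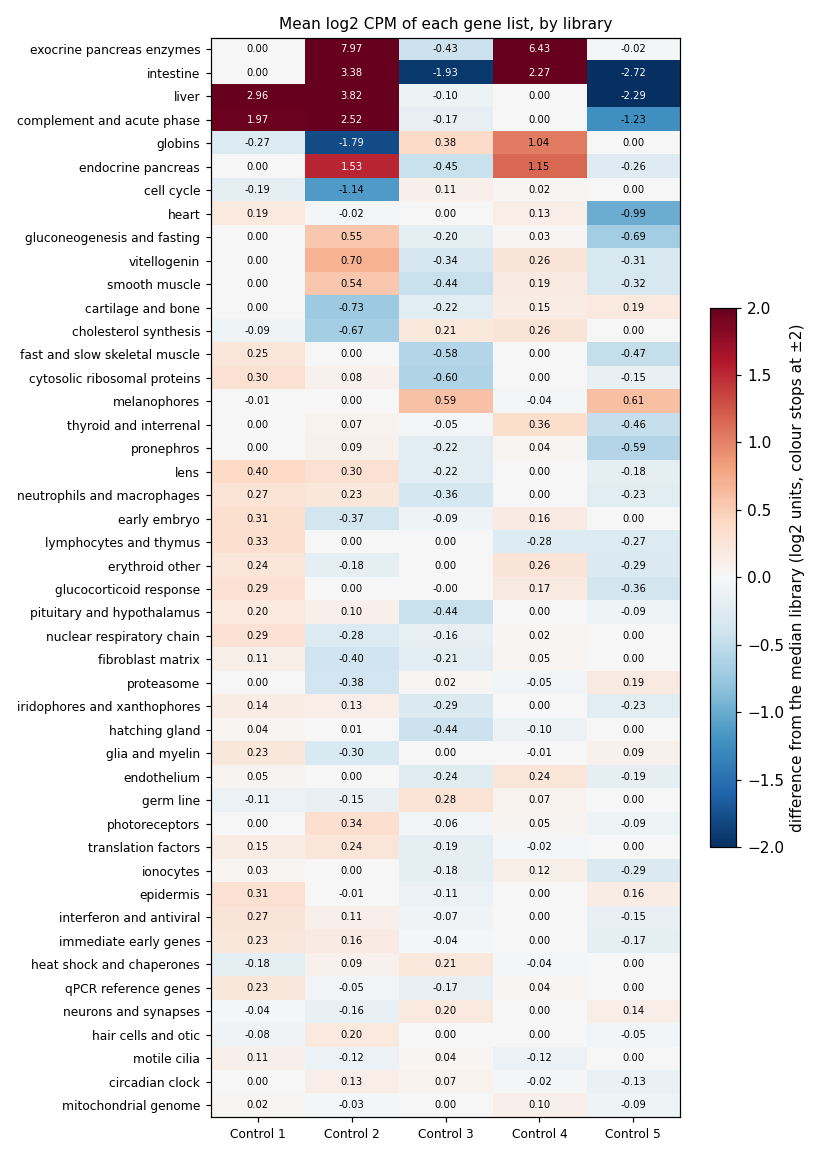
Difference of each list's mean log2 CPM from the median of the 5 Control libraries, in log2 units, for all 46 gene lists ordered by their SD, with colours ending at ±2. The pancreas and intestine lists are red in Control 2 and Control 4, the liver and complement lists in Control 1 and Control 2, and the cell cycle list is blue in Control 2 and the heart list in Control 5.

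Abundant muscle and ribosomal genes were lower in Control 3. The ribosomal protein list had a mean log2 CPM of 9.72, 9.51, 8.82, 9.42 and 9.27 in Control 1 to 5. Control 3 was the lowest library for 76 of its 77 members at 10 CPM or more and Control 1 the highest for 71, against 23.1% and 23.6% of all genes at that level. Skeletal muscle was at 7.53, 7.29, 6.70, 7.29 and 6.82, and Control 3 was lowest for 50 of 76 members. A pair of chaperone genes of the endoplasmic reticulum went the other way, with HSPA5 at 186, 137, 425, 241 and 352 CPM and HSP90B1 at 64.4, 92.4, 261, 214 and 161 CPM, both highest in Control 3. The heat shock and chaperones list that holds them differed little, with a mean log2 CPM of 4.91, 5.18, 5.30, 5.05 and 5.09. Control 3 also had the most even distribution of reads over genes and the largest TMM factor, 1.13 against 0.905 to 1.06 in the other libraries, and their part in these differences was not tested.

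The glucocorticoid response list had a mean log2 CPM of 4.86, 4.57, 4.57, 4.74 and 4.21, and Control 1 was the highest library for 12 of its 21 members at 10 CPM or more, against 23.6% of all genes at that level. The list mean was lowest in Control 5, and its SD of 0.25 log2 units fell to 0.14 without that library. On this list the chaperone gene FKBP5, a known cortisol target, had 499, 99.1, 331, 397 and 203 CPM. CEBPD, a transcription factor of acute responses, had 276, 104, 112, 145 and 92.4 CPM, and SOCS3 (ENSDARG00000025428), a brake on cytokine signalling, 80.3, 26.8, 21.6, 30.2 and 15.3 CPM. All 3 stood above the other libraries in Control 1, FKBP5 by the smallest margin. Control 1 was, by contrast, the lowest library in the mean of the heat shock and chaperones list, given above, and the immediate early gene list differed little, with a mean log2 CPM of 4.47, 4.41, 4.21, 4.25 and 4.07.

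The smallest SDs of a list mean were those of the mitochondrial genome, clock, motile cilia, hair cell and neuron lists. The SD of the list mean was 0.07 log2 units for the mitochondrial genome, 0.10 for clock genes, 0.10 for motile cilia, 0.11 for hair cells and inner ear and 0.14 for neurons and synapses. A mean over many members hides differences between them, and the median SD of single members at 10 CPM or more was 0.193 for the clock, 0.230 for hair cells and 0.218 for neurons, against 0.197 for all genes. It was 0.132 for the mitochondrial genome and 0.261 for the nuclear respiratory chain list, whose mean had an SD of 0.21. With libraries scaled by their totals alone the SD of the list mean was 0.13 for the mitochondrial genome, 0.17 for motile cilia and 0.27 for neurons, and without Control 2 it was 0.032 for hair cells. Of the 27 organ lists, 21 had a range of less than 1 log2 unit over the 5 libraries and 4 a range above 2, these being pancreas, intestine, liver and globins. Of the 15 process lists, 12 had a range below 1 and 1 above 2, complement and acute phase. The cilia genes spag1a and RFX2, an assembly factor and a ciliary transcription factor, had SDs of 0.066 and 0.078 log2 units at means of 22.3 and 20.6 CPM. They were the only 2 motile cilia members at 10 CPM or more. Over the 23 members at 1 CPM or more the median SD was 0.249.

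Of the 3256 genes with a mean of at least 50 CPM, 431 had an SD of 0.1 log2 units or less, 13.2% of those considered. Of these, 18 were on the lists and 413 on none. The share of list genes among all 3256 was not computed, so these counts are read only list by list. Among list members at 50 CPM or more, they were 0 of 71 ribosomal, 0 of 52 lens and 1 of 62 nuclear respiratory chain genes. They were also 1 of 56 skeletal muscle and 4 of 52 neuronal genes, all below 13.2%. Lists above that share were the mitochondrial genome with 4 of 13, the clock with 3 of 10, iridophores and xanthophores with 1 of 5 and pituitary and hypothalamus with 1 of 1. The kinase gene mark3a (ENSDARG00000019345) had 61.9, 61.1, 62.9, 62.1 and 62.4 CPM and an SD of 0.016 log2 units. The nuclear import receptor gene KPNB1 (ENSDARG00000104889) had 249.6, 249.7, 245, 245 and 240.2 CPM and VDAC1 (ENSDARG00000045132), a channel of the outer mitochondrial membrane, 356, 349, 342, 346 and 362 CPM. The 20 genes with the smallest SD and an informative name ran from 0.016 to 0.035 log2 units, and 6 of the 20 were at or below the SD that counting error alone gives for that gene. The furthest above it was VDAC1, by 2.37 times. The 20 genes also included ARHGEF12, an exchange factor of small GTPases, IMMT, of the mitochondrial inner membrane, the ESCRT adaptor pdcd6ip, the co-chaperone FKBP4 and the isoleucyl-tRNA synthetase IARS1.

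That ranking carried over to other samples only in part. The same 20 genes had a median SD of 0.112 log2 units among the 5 Low libraries and 0.130 among the 5 High libraries, and 6 of 20 were at or below 0.1 in each of those groups. Of the 431 genes, 160 were at or below 0.1 in Low and 139 in High, out of 638 and 471 genes of all 3256 that were. The variable genes carried over more often. Of the 270 genes at an SD of 1 or more in Control, 215 reached 1 within Low and 219 within High, against 316 and 353 of all 11253 genes. The list SD for pancreas enzymes was 4.07 among Control libraries, 3.07 among Low libraries and 3.30 among High libraries. For liver it was 2.49 among Control, 2.67 among Low and 2.74 among High libraries.

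Genes in common use as internal references for quantitative PCR differed widely in steadiness. SDHA (ENSDARG00000016721), a subunit of succinate dehydrogenase, had 189, 190.2, 189, 197 and 188 CPM and an SD of 0.029 log2 units, and it was the 1 reference gene among the 431. At the other end GAPDH (ENSDARG00000043457), a glycolytic enzyme, had 3966, 3666, 1371, 2933 and 1592 CPM and an SD of 0.70, with Control 3 and Control 5 below the other libraries. The highest library exceeded the lowest 2.89-fold. Ribosomal references also spread, with RPL11 at 2486, 1617, 904, 1828 and 1418 CPM (SD 0.54) and RPLP0 at 6957, 5343, 3036, 5270.0 and 4637 CPM (SD 0.44).

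Other abundant references lay between these ends. The SD was 0.29 for eef1a1l1, 0.24 for actb2, 0.30 for RPL8 and 0.31 for the cyclophilin gene ppiaa, all lowest in Control 3. Not all abundant references were lowest there. GAPDHS and ppiab, at 1168 and 832 CPM, had SDs of 0.15 and 0.26 and were lowest in Control 2. The actin gene actb1, at 1110 CPM, had an SD of 0.20 and was lowest in Control 4. Without Control 3 the SD was 0.25 for RPLP0, 0.35 for RPL11, 0.16 for eef1a1l1 and 0.18 for RPL8. Below 100 CPM, TMEM50A, lsm12b, SMAD5 and TBP, a general transcription factor, had SDs of 0.10, 0.11, 0.12 and 0.14. Of 34 matched reference genes, 31 were at 10 CPM or more, with a median SD of 0.262 against 0.197 for all genes at that level. None reached an SD of 1, but only 2.4% of all genes at that level did, so this does not set them apart. With libraries scaled by their totals alone the SD of SDHA was 0.13 in place of 0.029, so the steadiness of a gene is relative to the scaling.

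**Figure D5:**
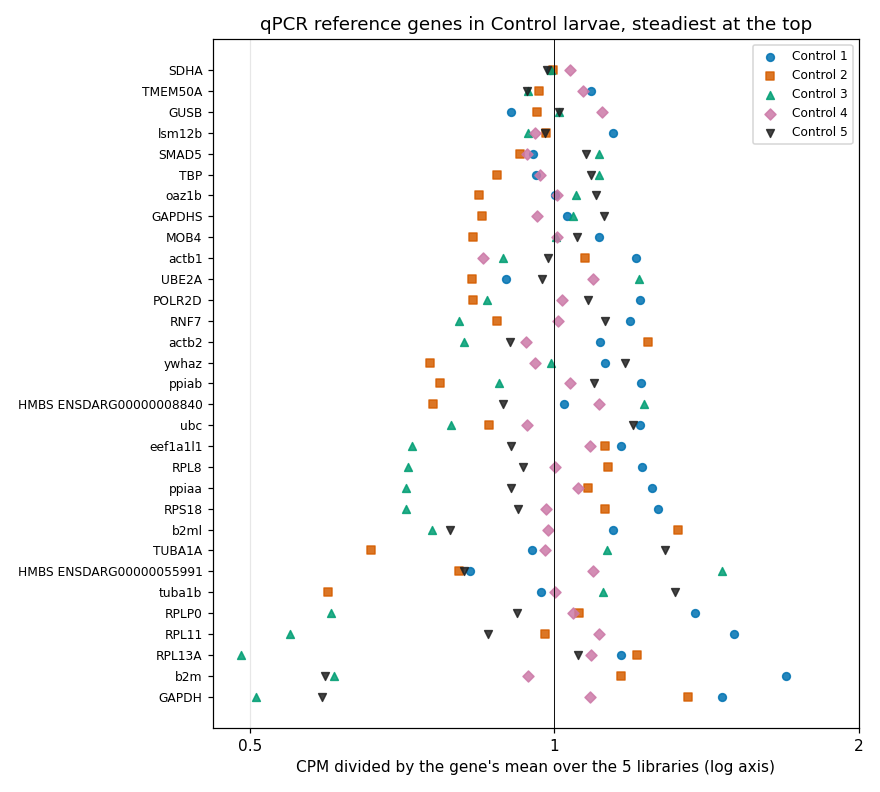
CPM in each Control library divided by the gene's mean over the 5 libraries (log axis) for the 31 qPCR reference genes at 10 CPM or more, ordered from the smallest SD of log2 CPM at the top. SDHA lies close to 1 in all libraries, whereas GAPDH, b2m and RPL13A at the bottom reach furthest from it, with Control 3 lowest for GAPDH and RPL13A.

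A principal component analysis of the 19775 genes at 1 CPM or more placed the libraries along a first component with 57.5% of the variance. The scores were 6.09, 87.1, -55.4, 33.6 and -71.3 in Control 1 to 5, so Control 2 lay at one end and Control 5 and Control 3 at the other. The genes with the largest weights at the end of Control 2 were chia.3, chia.2, apoea and amy2a. The second component, with 18.9%, had Control 1 at one end with a score of 55.4 and Control 4 at the other with -48.0. Without the members of the pancreas, intestine and liver lists the first component took 54.4%. Genes on no list with large weights at the end of Control 2, such as apoea and CELA1 (ENSDARG00000017314), stayed in. Without the 270 genes of large spread at 10 CPM or more, an alternative added after the data were seen, it took 51.8%. Of the 19775 genes used, 955 had an SD of 1 or more, so less abundant genes of large spread stayed in. Neither removal can therefore show what the component is without genes of large spread.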

How the data were processed

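Read counts were taken as deposited, as 1 table of whole numbers for Ensembl genes in 15 libraries with no normalization, per the file headers and the values. Per the submitters' processing notes, FastQC, MultiQC, Trimmomatic and DESeq2 were used and the builds GRCz11 and mm10 are named. How reads were aligned and counted, with which annotation and strand setting, is not given in the sources used here, so overlapping, antisense and near-identical genes cannot be told apart. RNA had an integrity number above 8 and was read over 100 bp from both ends, per the labels' protocols. The 15 lines that name no gene were left out. Columns were assigned to samples by library name.

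A gene name table gave symbols for 29201 of 32520 identifiers, and 6136 identifiers share a symbol. Of 1681 names written in 46 lists, 1212 matched by symbol, 307 without the copy letter, 47 by synonym and 115 not at all. The members and lists were chosen with earlier results of these data known.

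CPM used TMM factors from edgeR 4.0.16 in R 4.3.3 over the Control libraries, and log2 CPM a prior count of 2. Spread is the SD over the 5 libraries, for genes at a mean of 10 CPM or more (bound 1) or 50 CPM or more (bound 0.1), and list means use members at 1 CPM or more. The same SD was computed within Low and within High. The spread step was tested on simulated data. Genes were named by rule: the 20 most abundant, the 20 most and the 20 least variable with an informative symbol, up to 4 members of each list with the highest mean CPM, and the matched qPCR reference genes. Other list members, the marker checks and the genes of the closing section were chosen after their values were seen. A few genes named by these rules are not reported here.

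Alternatives were totals only, size factors of DESeq2 1.42.0, TMM over all 15 libraries, prior counts of 0.5 and 5, other filters, thinning to the smallest total, other measures of spread and leaving out each library. The counts give a counting SD for each gene, which covers counting error only. Levels per transcript length and promoter motifs were not analysed here.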

Additional observations from a re-analysis of the deposited data

Results flagged for a closer look

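For each of 46 list means, the total counts and each gene reported here among the most abundant, the most variable and the reference genes, 117 values in all, the gap between the most extreme library and its nearest neighbour was set against the range of the 5 libraries. In 13 the gap passed 0.71, Dixon's 95% value, which served here only to mark values and not as a test. The most variable genes were chosen for their spread between these same libraries, and several of the 13 are among them. Gene values were CPM on the linear scale, for which that bound was not checked. The 13 therefore cannot be set against a rate given by chance. The 117 values also share libraries and are not independent.

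The total counts of Control 5, 59.9 M, lay above the nearest library at 29.5 M. In Control 5 the heart list averaged 2.77 log2 CPM, below the nearest at 3.74, and the cell cycle list averaged 4.07 in Control 2, below the nearest at 5.02.

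Of the pancreas enzyme genes, 6 had a single high library, Control 2, because Control 4 lay much closer on the linear scale to the low libraries. They were amy2a at 1123 CPM, CEL (ENSDARG00000029822) at 356 CPM, CPA1 (ENSDARG00000030915) at 384 CPM, cela1.3 at 109 CPM, c6ast3 at 244 CPM and CEL (ENSDARG00000017490) at 1251 CPM. Control 4 had 268, 44.1, 105, 24.4, 23.8 and 308 CPM for the same genes.

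Among reference genes, SDHA had 197 CPM in Control 4 and 190 CPM in the nearest library, a small difference that stands out only because the other 4 libraries were so close. lsm12b had 72.5 CPM in Control 1 against 62.2 CPM in the nearest library, tuba4l 2.14 CPM in Control 1 against 1.12 CPM, and RPL13A 37.6 CPM in Control 3 against 81.1 CPM.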

How the results depend on the processing

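No paired analysis was possible because no test was made and all libraries belong to 1 group. Counts per transcript length could not be run, since no lengths were in the tables used here, and no promoter sequences were either. The count of genes with an SD of 1 or more was 270, and stayed between 266 and 272 under the 3 other scalings; without 1 library it ran from 207 without Control 2 to 293 without Control 1, and with genes down to a mean of 1 CPM it was 955. The count of genes with an SD of 0.1 or less was 431, 161 with totals only, and 398 to 764 without 1 library, most without Control 2. None of the 20 steadiest genes stayed at or below an SD of 0.1 with totals only, where their SDs reached 0.16, whereas all 20 did under DESeq2 size factors, under TMM over all 15 libraries and without each library in turn. All 20 of the most variable genes by SD of log2 CPM remained among the 20 under the other scalings and 14 to 18 did without 1 library, but 7 remained when genes were ranked by edgeR tagwise dispersion and 10 by the coefficient of variation of CPM. A further comparison asked where the SD of a list mean differed by more than 1.5 times from its main value, which stands in parentheses here. With totals only it was 0.23 for skeletal muscle (0.35), 0.27 for neurons and synapses (0.14), 0.16 for lens (0.28), 0.15 for neutrophils and macrophages (0.28), 0.0801 for iridophores and xanthophores (0.20), 0.13 for pituitary and hypothalamus (0.25), 0.17 for motile cilia (0.10), 0.12 for hatching gland (0.20), 0.41 for germ line (0.17), 0.13 for mitochondrial genome (0.0697), 0.22 for ribosomal proteins (0.34), 0.075 for translation factors (0.17), 0.10 for qPCR reference genes (0.15), 0.092 for immediate early genes (0.16), 0.29 for heat shock and chaperones (0.15) and 0.084 for interferon and antiviral (0.16). With TMM over all 15 libraries it was 0.38 for germ line. With members at 10 CPM or more it was 0.44 for pronephros (0.28), 0.11 for ionocytes (0.17), 0.62 for melanophores (0.34), 0.036 for iridophores and xanthophores (0.20), 0.21 for endocrine pancreas (0.89), 1.14 for thyroid and interrenal (0.29), 0.031 for motile cilia (0.10) and 0.12 for hatching gland (0.20), of which thyroid and interrenal rests on 1 member. With 1 library left out, 24 list means passed that bound. The lowest came without Control 1 in the ranges 0.10 to 0.19 for epidermis (0.16), 0.15 to 0.29 for lymphocytes and thymus (0.25), 0.091 to 0.17 for qPCR reference genes (0.15) and 0.10 to 0.18 for interferon and antiviral (0.16). The lowest came without Control 2 in the ranges 0.11 to 0.23 for glia and myelin (0.19), 0.064 to 0.19 for photoreceptors (0.17), 0.19 to 0.44 for cartilage and bone (0.37), 0.57 to 1.22 for globins (1.05), 0.032 to 0.12 for hair cells and otic (0.11), 0.28 to 0.49 for vitellogenin (0.43), 0.10 to 0.25 for proteasome (0.21), 0.12 to 0.60 for cell cycle (0.51), 0.17 to 0.44 for cholesterol synthesis (0.37) and 0.29 to 0.56 for gluconeogenesis and fasting (0.45). The lowest came without Control 3 in the ranges 0.12 to 0.29 for pituitary and hypothalamus (0.25), 0.0603 to 0.23 for hatching gland (0.20), 0.10 to 0.33 for germ line (0.17) and 0.19 to 0.39 for ribosomal proteins (0.34). The lowest came without Control 4 in the ranges 0.12 to 0.22 for endothelium (0.19) and 0.043 to 0.083 for mitochondrial genome (0.0697). The lowest came without Control 5 in the ranges 0.13 to 0.32 for pronephros (0.28), 0.10 to 0.56 for heart (0.48), 0.18 to 0.34 for thyroid and interrenal (0.29) and 0.14 to 0.29 for glucocorticoid response (0.25). Without the mitochondrial genome in the total, the shares of pronephros and of iridophores and xanthophores were 0.0906% and 0.079%, against 0.0862% and 0.0752%. The SDs of single named genes moved by more than 1.5 times in 186 of 1952 comparisons, 146 of them lower, with 62 of 244 lower without Control 2 and 36 higher and 25 lower with totals only. The other 787 comparisons, over levels, lists, counts and the first component, stayed within 1 SD for shares and within 1.5 times the main value for spreads and counts. An SD over 5 libraries has a wide error.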

Other observations

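Outside the chosen lists, 171 genes reached an SD of 1 or more, and the named ones below were picked after their values were seen. Many repeated the patterns of the digestive lists. The apolipoprotein gene apoa1b, the main protein of high-density lipoprotein, had 1830.3, 1664, 131, 74.2 and 3.4 CPM in Control 1 to 5 and followed the liver order, whereas apobb.1 had 173, 1356, 17.7, 1428 and 2.15 CPM and apoea 45, 982, 0.304, 1315 and 0.316 CPM, with Control 2 and Control 4 highest. The drug metabolism gene cyp3a65 had 35, 425, 6.65, 179.6 and 4.89 CPM, and the lysosomal protease gene ctsl.1 4.87, 392, 2.9, 13.9 and 4.43 CPM, high in Control 2 alone. UCP1, a mitochondrial uncoupling protein, had 38.7, 361, 14.9, 74.1 and 6.63 CPM.

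A second set was low in some libraries and far higher in others, in orders mostly unlike those of the digestive lists. The MHC class II genes mhc2dab and mhc2daa, which present antigen, had 128, 0, 0.337, 93.2 and 0.996 and 171, 4.49, 3.31, 135 and 10.7 CPM, highest in Control 1 and Control 4, and mhc2daa had counts in every library. Their relative mhc2dhb had 6.07, 5.12, 8, 29 and 31.3 CPM, highest in Control 4 and Control 5. NONO, an RNA-binding protein of the nucleus, had 0.487, 35.6, 50.6, 1.16 and 58.5 CPM, and MSN, which links actin to the membrane, 3.6, 34.3, 42.7, 4.66 and 50.3 CPM, both low in Control 1 and Control 4. CHMP1B, of the ESCRT machinery, had 1.87, 49.1, 14.1, 8.31 and 44.2 CPM and the chromatin protein gene hmgn7 9.15, 128, 61.8, 36.3 and 158 CPM, highest in Control 2 and Control 5. The calpain gene capn2l had 0.225, 24.4, 20.3, 23.7 and 6.33 CPM. Its highest pair, Control 2 and Control 4, was that of the pancreas and intestine lists, but Control 3 lay close to them. For NONO the SD was 3.24 log2 units in Control, 2.81 in Low and 2.39 in High, and for mhc2dab 4.91 in Control, 4.44 in Low and 3.92 in High. How reads were divided among near-identical copies is not known.

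RPE65 (ENSDARG00000007480), 1 of 3 identifiers with that symbol and an enzyme of the visual cycle in retinal pigment epithelium, had 4.39, 4.72, 20.1, 6.02 and 20.8 CPM, highest in Control 3 and Control 5 as were pmelb and DCT. DDIT4, an inhibitor of growth signalling, had 185, 38.2, 54.7, 57.3 and 52.2 CPM, highest in Control 1 as was FKBP5. The retroviral gene erv had 182, 91, 442, 81 and 96.1 CPM, highest in Control 3. The transcription factor gene GATA6, of endoderm and heart, had 3.52, 12.7, 1.45, 5.7 and 0.87 CPM, and cdx1b, of intestinal identity, 0.337, 6.74, 0, 3.53 and 0 CPM, both highest in Control 2 and Control 4.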
